A study of Homo sapiens with 6 samples.

Results

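Cholesterol and fatty acid synthesis genes were described in the human multiple myeloma line RPMI 8226, a line of malignant plasma cells, after carbon ion irradiation. The set was a list of 30 gene symbols: 18 of the sterol arm, 4 regulators of the sterol regulatory element binding proteins (SREBPs) and 8 of the fatty acid arm. Of these, 28 genes were measured among the 18417 genes of the array table: 16 of the sterol arm, 4 regulators and 8 of the fatty acid arm. A gene was taken from a probe set that lists it as its only gene, and from the brightest one where there were several. HSD17B7 was left out because its probe set also lists a pseudogene, and FDFT1 was not analysed here. The 3 irradiated samples received 6 Gy of carbon ions and the 3 unirradiated samples 0 Gy, and total RNA was taken 1 day later from cells grown in serum-supplemented medium. The labels name no engineered allele, and all samples are of this single line. The samples are numbered 1 to 3 within a dose, and nothing says that these came from separate cultures; the spread behind every p-value may therefore be technical.

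Cells build cholesterol from acetyl-CoA through mevalonate, squalene and lanosterol, and build fatty acids from the same acetyl-CoA through malonyl-CoA. Both arms are driven by SREBPs, membrane-bound transcription factors of the endoplasmic reticulum. When sterols are scarce, the escort protein SCAP carries an SREBP to the Golgi, where it is cut free to enter the nucleus. When sterols are plentiful, INSIG proteins hold SCAP in the endoplasmic reticulum. SREBP2 acts mainly on sterol genes and SREBP1 mainly on fatty acid genes. Plasma cells need membrane lipid for a large endoplasmic reticulum, the site where they fold antibody.

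Values are deposited log2 intensities of 1-colour arrays, and a difference is the irradiated mean minus the unirradiated mean on that scale. The base of the logarithm was inferred from the range of the values. Array medians lay between 5.66 and 5.72 on the irradiated arrays and between 5.64 and 5.67 on the unirradiated arrays. Upper quartiles were all lower on the irradiated arrays, between 7.87 and 7.91 against 7.92 to 7.96 on the unirradiated arrays. Lower quartiles overlapped. The median difference over all genes was 0.04. It was 0.015 with the dimmest 33.3% of genes left out, so it depended on brightness. Precision is limited by the 3 arrays a group, and the median gene's difference had a standard error (SE) of 0.08. Of 9 plasma cell markers, 8 had a mean of at least 9.95 in both groups, and SLAMF7, a surface receptor of plasma cells, had 5.18 on irradiated and 4.63 on unirradiated arrays. Of these 9, SLAMF7 rose by 0.55, and CD38, a surface enzyme, and XBP1, a transcription factor of antibody-secreting cells, fell by 0.42 and 0.23. That is 11.1% higher and 22.2% lower, against 6.35% higher and 8.18% lower among all 18417 genes, where a call is a limma adjusted p under 0.05. The XBP1 call ended without any 1 array except irradiated replicate 3 (limma adjusted p up to 0.117) and with the sample numbers as a replicate block (0.0875), and the CD38 call without unirradiated replicate 2 (0.055). Of 20 measured markers of earlier B cells and of other cell types, with means between 3.32 and 10.10 on irradiated and between 3.21 and 10.49 on unirradiated arrays, 4 rose (MS4A1, ITGAM, COL1A1 and PECAM1) and 1 fell (EPCAM, an epithelial adhesion gene, with means of 10.10 on irradiated and 10.49 on unirradiated arrays), which is 20% higher and 5% lower. The median difference of these 20 was 0.21, against 0.04 over all genes. Among all 18417 genes 11008 were positive, and of the 20 markers 17 were. At an unadjusted p under 0.05 in limma, 11 were higher and 2 lower, beside 15.8% of all genes higher and 14% lower. The COL1A1 call ended without any 1 of the 6 arrays (limma adjusted p up to 0.113), with the replicate block (0.086), with array medians subtracted (0.0573) and with an intensity trend and a robust prior (0.0544), and the EPCAM call without unirradiated replicate 2 or 3 (up to 0.0541). With the mean of a gene's probe sets, PECAM1 differed by 0.32 in place of 0.70 and EPCAM by -0.28 in place of -0.39. Both stayed called. PECAM1 was among the dimmest 33.3% of genes, with means of 5.48 on irradiated and 4.78 on unirradiated arrays. None of the 5 T and NK cell markers among the 20 passed limma, with 3 higher and 1 lower at an unadjusted p under 0.05. NCAM1 had the smallest p among them (difference -0.31, limma adjusted p 0.077). The part of these markers in the results was not tested. In such bulk RNA, fewer cells of a type and less RNA per cell cannot be told apart.

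Most of the synthesis genes differed little between irradiated and unirradiated cells, and those that changed did not share a direction. Of the 28 members, 2 rose, 4 fell and 22 did not pass limma with a Benjamini-Hochberg adjusted p under 0.05 over all genes. The called share was 7.14% higher and 14.3% lower, against 6.35% higher and 8.18% lower among all genes tested. For calls in either direction the share was 21.4% of members and 14.5% of all genes. The groups were free of overlap for 13 of the 28 members (46.4%), against 34.7% of all genes. All 28 members had a mean of at least 7.27 in both groups, whereas all genes include dim ones. With the dimmest 33.3% of genes left out, the fit and the adjustment were made anew. In that fit 3178 of 12278 genes were called, and 2 members were higher and 5 lower. Whether brightness has a part in the larger shares among members was not tested, and the share without overlap was not computed for the brighter genes. The changed members were a pair of regulators, SREBF2 and INSIG1, which fell, the sterol enzymes NSDHL, which rose, and LSS, which fell, and the fatty acid enzymes FASN, which rose, and FADS1, which fell. No member differed by more than 0.47 on the log2 scale in either direction. Without any 1 array other than irradiated replicate 3, and with the sample numbers as a replicate block, the counts were 1 higher and 2 lower; without irradiated replicate 3 they were 2 and 3.

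**Figure D1:**
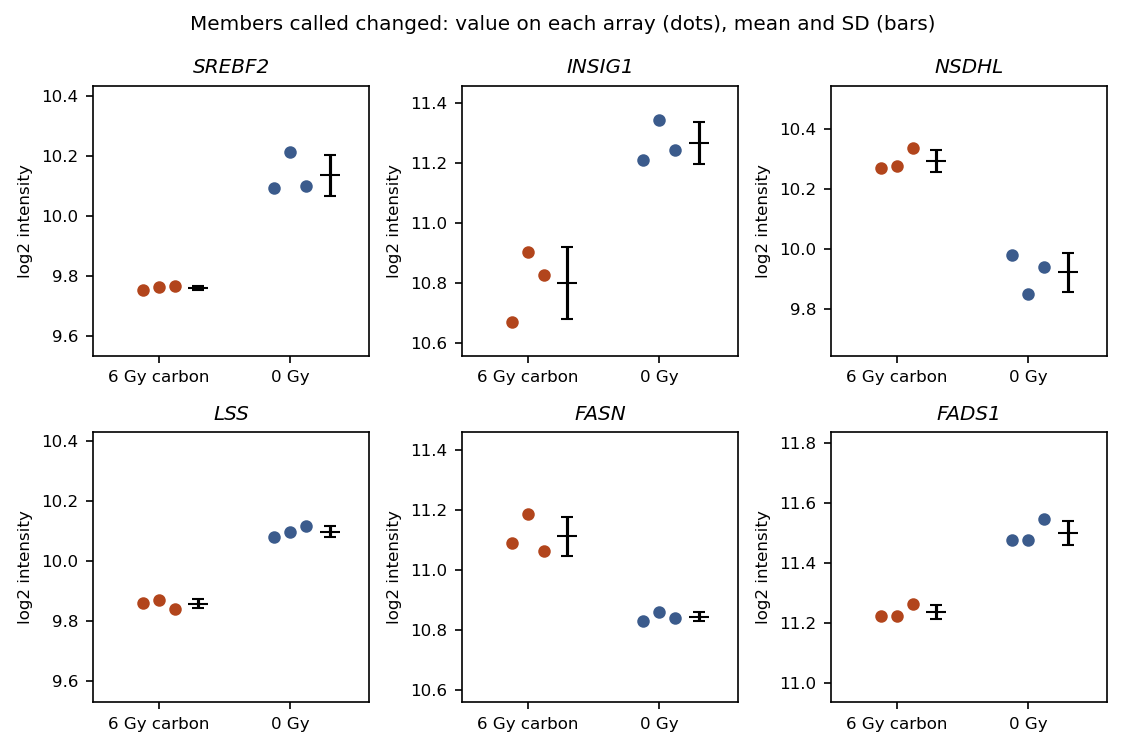
Log2 intensity of the 6 called members on each array (dots) with the mean and SD of each group (bars), for cells given 6 Gy of carbon ions (left in each panel) and 0 Gy (right). Every panel spans the same height, and in none of them do the groups overlap: NSDHL and FASN are higher and the other 4 genes lower after irradiation.

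Among the members, INSIG1 had the largest fitted difference, and SREBF2 and NSDHL followed with nearly the same size, in opposite directions. INSIG1, which encodes an anchor that retains SCAP in the endoplasmic reticulum and is itself a classical SREBP target, had values of 10.67, 10.90 and 10.83 on irradiated arrays 1 to 3 and 11.21, 11.34 and 11.24 on unirradiated arrays 1 to 3. All irradiated values lay below all unirradiated values. The difference was -0.47 ± 0.08 (SE), or 1.38-fold lower, with a limma adjusted p of 0.00478. SREBF2, which encodes SREBP2, had 9.75, 9.76 and 9.77 on the irradiated arrays and 10.10, 10.22 and 10.10 on the unirradiated arrays. The irradiated values were nearly equal and lay below every unirradiated value. SREBF2 fell by 0.38 ± 0.07 (SE), or 1.30-fold, with a limma adjusted p of 0.00562.

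The genes of the other SREBP and of the escort protein did not pass. SREBF1, which encodes SREBP1, averaged 10.18 ± 0.03 on irradiated and 10.22 ± 0.06 on unirradiated arrays (SD, n = 3 each). Its values overlapped, and the 95% interval of the difference ran from -0.19 to 0.11. SCAP averaged 9.12 ± 0.09 on irradiated and 9.23 ± 0.06 on unirradiated arrays (SD, n = 3 each), with an interval from -0.27 to 0.06. All 4 regulators had a negative difference, as had 7409 of all 18417 genes, and the median of the 4 was -0.24. Whether the SREBF2 and SREBF1 differences differ from each other was not tested.

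Upstream sequences are shown for the called members that had a RefSeq promoter sequence here, which FASN did not. The transcripts of these members moved in different directions. The sequences are from RefSeq on GRCh38.p14, run 5′ to 3′ along the gene, and cover the 250 bases before the annotated start. Capitals mark letter matches on either strand to a sterol regulatory element (ATCAC, any base, then CCAC), the box bound by NF-Y (CCAAT), the GC box (GGGCGG) and the palindromic E-box (CACGTG). NF-Y and the GC box factor SP1 are known partners of SREBPs.
SREBF2 promoter, chr22:41832855-41833104 (plus strand): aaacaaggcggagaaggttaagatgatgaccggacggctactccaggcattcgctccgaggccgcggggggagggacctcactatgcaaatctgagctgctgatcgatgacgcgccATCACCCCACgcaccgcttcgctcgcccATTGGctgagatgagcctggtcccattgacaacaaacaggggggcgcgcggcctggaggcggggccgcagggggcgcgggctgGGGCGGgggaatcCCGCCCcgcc
INSIG1 promoter, chr7:155297628-155297877 (plus strand): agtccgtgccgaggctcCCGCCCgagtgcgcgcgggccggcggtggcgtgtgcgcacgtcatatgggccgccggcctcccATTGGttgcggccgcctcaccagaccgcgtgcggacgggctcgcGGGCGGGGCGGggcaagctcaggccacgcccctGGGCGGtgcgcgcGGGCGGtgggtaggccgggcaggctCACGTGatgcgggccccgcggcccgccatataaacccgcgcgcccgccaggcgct
NSDHL promoter, chrX:152830813-152831062 (plus strand): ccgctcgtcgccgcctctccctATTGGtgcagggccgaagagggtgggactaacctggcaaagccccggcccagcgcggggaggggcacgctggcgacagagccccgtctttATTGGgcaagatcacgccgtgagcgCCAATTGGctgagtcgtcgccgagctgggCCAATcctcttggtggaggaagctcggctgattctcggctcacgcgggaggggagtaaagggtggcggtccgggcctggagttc
LSS promoter, chr21:46228775-46229024 (minus strand): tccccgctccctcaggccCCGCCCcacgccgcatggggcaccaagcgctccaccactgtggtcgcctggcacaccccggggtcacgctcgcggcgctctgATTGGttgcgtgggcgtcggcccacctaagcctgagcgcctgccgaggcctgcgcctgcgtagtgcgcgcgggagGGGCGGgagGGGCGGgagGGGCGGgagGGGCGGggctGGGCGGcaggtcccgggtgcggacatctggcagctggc
FADS1 promoter, chr11:61817004-61817253 (minus strand): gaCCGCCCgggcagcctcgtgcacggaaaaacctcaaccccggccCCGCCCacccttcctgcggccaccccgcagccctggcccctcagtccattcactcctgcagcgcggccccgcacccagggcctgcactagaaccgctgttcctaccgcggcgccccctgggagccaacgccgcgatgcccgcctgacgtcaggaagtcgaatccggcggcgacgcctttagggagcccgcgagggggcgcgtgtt

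The promoter of SREBF2 held the sterol regulatory element letters, ending 124 bases before the start, with a CCAAT match closer to the start. Of the 25 members with a promoter in the RefSeq table, SREBF2 was the 1 with that 10-letter match (4%), and 16 of the 14237 promoters of tested genes held it (0.112%). A looser search for TCACNCCAC, which the longer element contains, again found 1 member, SREBF2, against 124 of all promoters (0.871%). CCAAT was present in 16 of 25 members (64%) and in 34.4% of all promoters. GGGCGG was present in 22 members (88%) and in 57.5% of all promoters, and CACGTG in 4 members (16%) and 7.86% of all promoters. The INSIG1 promoter held the E-box letters 49 bases before the start and 5 GC box matches, of which a pair overlap by 1 letter. The promoter of NSDHL, which rose, held 5 CCAAT matches, of which a pair on opposite strands overlap, and no GC box match. That of LSS, which fell, held 1 CCAAT and 6 GC box matches. The FADS1 promoter held 2 GC box matches and no CCAAT match. These are matches of letters in a short window and describe the sequences alone. Sites with other letters were not searched, so a missing match does not show that a member lacks a sterol regulatory element.

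In the sterol arm, the enzymes from acetyl-CoA to farnesyl diphosphate had 0 calls by limma among 7, and 2 of them (0 higher, 2 lower) had an unadjusted p under 0.05, beside 29.8% of all genes. HMGCS1, which makes the HMG-CoA that feeds mevalonate synthesis, had 9.59, 9.61 and 9.48 on the irradiated arrays and 9.88, 9.67 and 9.81 on the unirradiated arrays. Its irradiated values were all lower, but the difference of -0.23 ± 0.08 (SE) did not pass, with a limma adjusted p of 0.0826. It was called when the dimmest 33.3% of genes were left out (adjusted p 0.0494) and with an intensity trend and a robust prior (0.0308). PMVK, the phosphomevalonate kinase, likewise lay lower on every irradiated array, with 7.27, 7.53 and 7.48 against 7.64, 7.73 and 7.62 on the unirradiated arrays. Its difference was -0.24 ± 0.08 (SE) with a limma adjusted p of 0.0837, and 0.0379 when array medians were subtracted.

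The other 5 enzymes of that stretch overlapped between the groups. The thiolase gene ACAT2 differed by 0.02, the mevalonate kinase gene MVK by -0.09, the decarboxylase gene MVD by 0.06, the isomerase gene IDI1 by 0.12 and FDPS, which makes farnesyl diphosphate, by 0.03. The 95% intervals of these 5 differences all lay between -0.25 and 0.28. The direction for ACAT2 turned to -0.0071 when array medians were subtracted.

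Squalene is oxidised by SQLE and closed into the first sterol, lanosterol, by LSS. SQLE had 11.48, 11.46 and 11.61 on the irradiated arrays and 11.46, 11.38 and 11.37 on the unirradiated arrays, and the groups met at 11.46. It differed by 0.11 ± 0.07 (SE), with a limma adjusted p of 0.333. LSS had 9.86, 9.87 and 9.84 on the irradiated arrays and 10.08, 10.10 and 10.12 on the unirradiated arrays. Both groups were tight and stood clearly apart. LSS fell by 0.24 ± 0.06 (SE), or 1.18-fold, with a limma adjusted p of 0.0304. Leaving out any 1 of the 6 arrays ended that call, with adjusted p between 0.062 and 0.0926, and a replicate block gave 0.072.

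**Figure D2:**
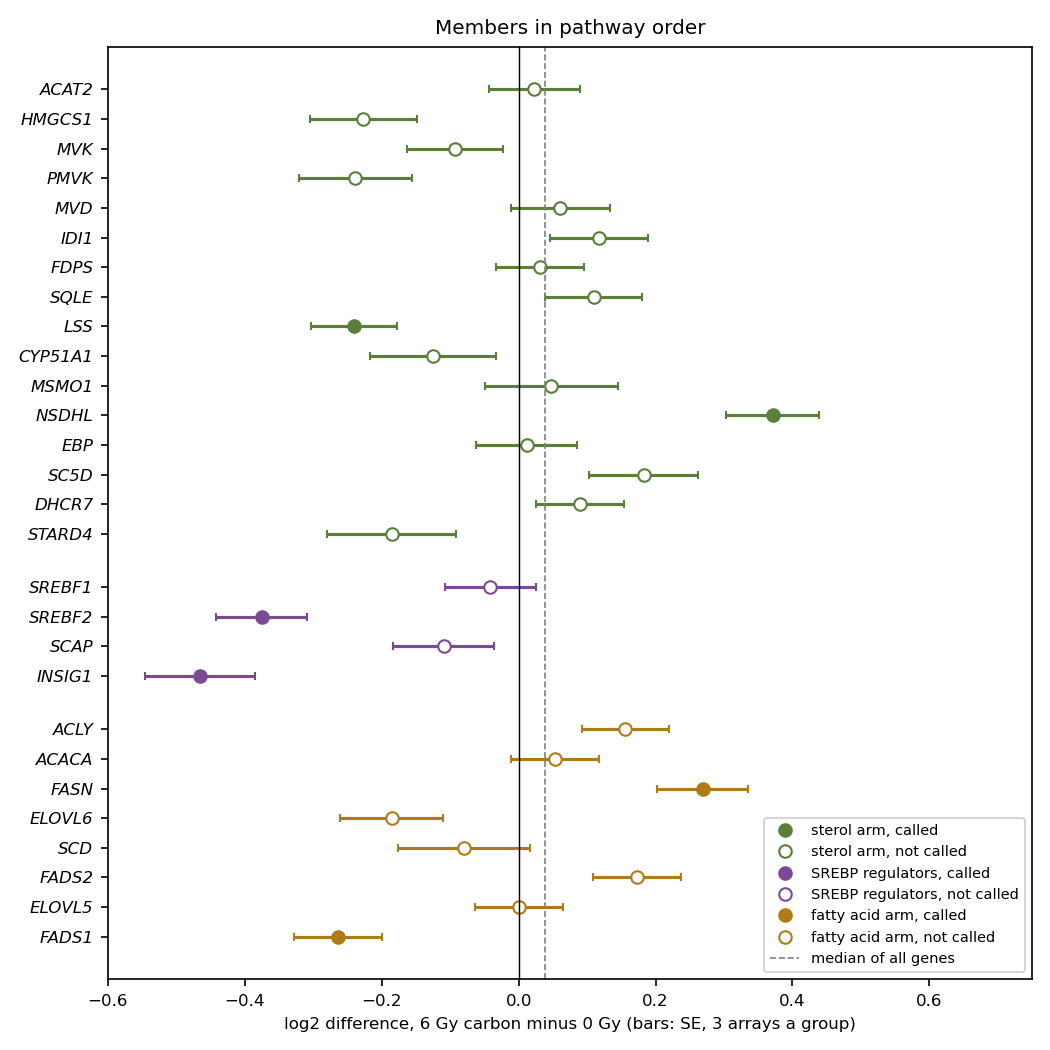
Log2 difference between 6 Gy and 0 Gy cells with its SE (3 arrays a group) for the 28 measured members, listed from the first to the last step of each arm; filled points were called, and the dashed line is the median of all genes, 0.04. NSDHL stands farthest to the right and INSIG1 farthest to the left, and most open points lie within 0.2 of 0.

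Of the 6 members measured between lanosterol and cholesterol, NSDHL rose and 5 did not pass. The sterol reductase genes TM7SF2 and LBR, which are not members, were also called and are given with the further genes below. NSDHL, a dehydrogenase that helps strip methyl groups from the sterol ring, had 10.27, 10.28 and 10.34 on the irradiated arrays and 9.98, 9.85 and 9.94 on the unirradiated arrays. Every irradiated value exceeded every unirradiated value. The rise was 0.37 ± 0.07 (SE), or 1.29-fold, with a limma adjusted p of 0.00634. MSMO1, the oxidase that acts just before NSDHL on the same methyl groups, differed by 0.05 ± 0.10 (SE), with a 95% interval from -0.17 to 0.27. Its irradiated values of 10.25, 10.43 and 10.04 spanned the unirradiated values of 10.13, 10.19 and 10.26. Without irradiated replicate 2 its difference was -0.05.

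CYP51A1, the lanosterol demethylase, had 10.21, 10.32 and 10.54 on the irradiated arrays and 10.56, 10.47 and 10.41 on the unirradiated arrays. The difference of -0.13 ± 0.09 (SE) did not pass, and a dimmer second probe set gave -0.04. SC5D, the sterol desaturase, was higher on every irradiated array (8.57, 8.65 and 8.60 against 8.28, 8.46 and 8.53 on the unirradiated arrays). Its difference of 0.18 ± 0.08 (SE) had a limma adjusted p of 0.157. DHCR7, the reductase of the last step, averaged 11.46 ± 0.03 on irradiated and 11.37 ± 0.03 on unirradiated arrays (SD, n = 3 each), without overlap and without a call (limma adjusted p 0.38). The isomerase gene EBP averaged 10.83 ± 0.09 on irradiated and 10.82 ± 0.06 on unirradiated arrays (SD, n = 3 each), with a 95% interval of the difference from -0.15 to 0.18. STARD4, which encodes a carrier of cholesterol between membranes rather than an enzyme, differed by -0.19 ± 0.09 (SE), with overlapping groups and a limma adjusted p of 0.223.

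In the fatty acid arm, FASN rose and FADS1 fell. FASN, the synthase that assembles palmitate, had 11.09, 11.19 and 11.06 on the irradiated arrays and 10.83, 10.86 and 10.84 on the unirradiated arrays. The groups did not overlap, and the unirradiated values were the tighter of the 2 sets. FASN rose by 0.27 ± 0.07 (SE), or 1.20-fold, with a limma adjusted p of 0.0251. The call ended when any 1 array other than irradiated replicate 3 was left out, with adjusted p between 0.0562 and 0.0832, and with the replicate block (0.0561). The enzymes that supply FASN had smaller positive differences. ACLY, which makes acetyl-CoA from citrate, had 11.37, 11.38 and 11.42 on the irradiated arrays and 11.21, 11.26 and 11.23 on the unirradiated arrays, a difference of 0.16 ± 0.06 (SE) that did not pass (limma adjusted p 0.134; 0.029 with an intensity trend and a robust prior). ACACA, the acetyl-CoA carboxylase that makes malonyl-CoA, differed by 0.05 ± 0.06 (SE), and the groups overlapped at 8.39.

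The desaturases and elongases that act on finished chains differed in sign. FADS1, which inserts a double bond late in the synthesis of polyunsaturated fatty acids, had 11.22, 11.22 and 11.26 on the irradiated arrays and 11.48, 11.48 and 11.55 on the unirradiated arrays. All 3 irradiated values were below the unirradiated ones. FADS1 fell by 0.26 ± 0.06 (SE), or 1.20-fold, with a limma adjusted p of 0.0237. The call ended when any 1 array other than irradiated replicate 3 was left out, with adjusted p between 0.0604 and 0.075, and with the replicate block (0.0553). FADS2, the desaturase of the first step of the same chain of reactions, had 11.88, 11.89 and 11.86 on the irradiated arrays and 11.68, 11.69 and 11.76 on the unirradiated arrays. These groups did not overlap either, and the difference was positive, at 0.17 ± 0.06 (SE). It did not pass, with a limma adjusted p of 0.103, though it did with an intensity trend and a robust prior (0.0143).

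FADS1 and FADS2 are neighbouring protein-coding genes on chromosome 11 in the RefSeq annotation of GRCh38.p14, the 1 such pair among the members. The pair was singled out after its values were seen, so the ratio of their intensities on each array is given without a test. Set to 0 at the unirradiated mean, the log2 ratio of FADS2 to FADS1 was 0.45, 0.46 and 0.39 on the irradiated arrays. It lay between -0.0034 and 0.0024 on the unirradiated arrays. The mean shift was 0.44.

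SCD, the desaturase that makes oleate, varied most within the irradiated group among the fatty acid genes: it had 12.15, 12.27 and 11.93 on the irradiated arrays and 12.16, 12.12 and 12.31 on the unirradiated arrays. Its difference of -0.08 ± 0.10 (SE) turned to 0.01 without irradiated replicate 3. ELOVL6, which lengthens palmitate, had 9.18, 9.24 and 9.02 on the irradiated arrays and 9.32, 9.33 and 9.33 on the unirradiated arrays. All irradiated values were lower, and the difference of -0.19 ± 0.08 (SE) did not pass (limma adjusted p 0.131). ELOVL5, which lengthens polyunsaturated chains between the FADS2 and FADS1 steps, averaged 10.75 ± 0.04 on irradiated and 10.75 ± 0.03 on unirradiated arrays (SD, n = 3 each). Its 95% interval ran from -0.14 to 0.14.

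**Figure D3:**
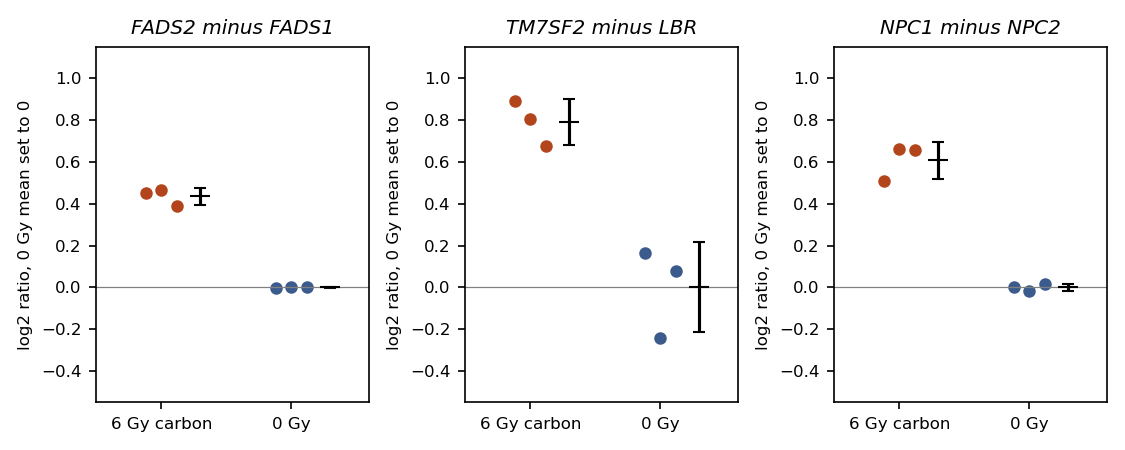
Log2 ratio of 2 genes on each array with the mean of the 0 Gy arrays set to 0 (dots), and the mean and SD of each group (bars), for cells given 6 Gy (left) and 0 Gy (right). The FADS2 to FADS1, TM7SF2 to LBR and NPC1 to NPC2 ratios are all higher on the 3 irradiated arrays than on any unirradiated array; the pairs were chosen after their values were seen.

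Set side by side, the arms had nearly the same central value. The median difference was 0.03 over the 16 sterol genes and 0.03 over the 8 fatty acid genes, beside 0.04 over all genes. With the dimmest 33.3% of genes left out, the median over the remaining genes was 0.015. Each arm had 1 call in each direction: 6.25% of sterol genes and 12.5% of fatty acid genes were higher, and the same shares were lower. Per array, the median deviation of sterol genes from their unirradiated means was -0.0072, 0.06 and 0.02 on the irradiated arrays. The corresponding medians of fatty acid genes were 0.02, 0.06 and 0.04, and those of the 4 regulators were -0.26, -0.19 and -0.28. With array medians subtracted, both arm medians were just below 0, at -0.0030 for the sterol and -0.0033 for the fatty acid arm. Without irradiated replicate 2 the sterol median was -0.02, and without unirradiated replicate 3 the fatty acid median was 0.0077. In size, the median difference regardless of sign was 0.11 in the sterol arm and 0.16 in the fatty acid arm, beside 0.12 over all genes.

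**Figure D4:**
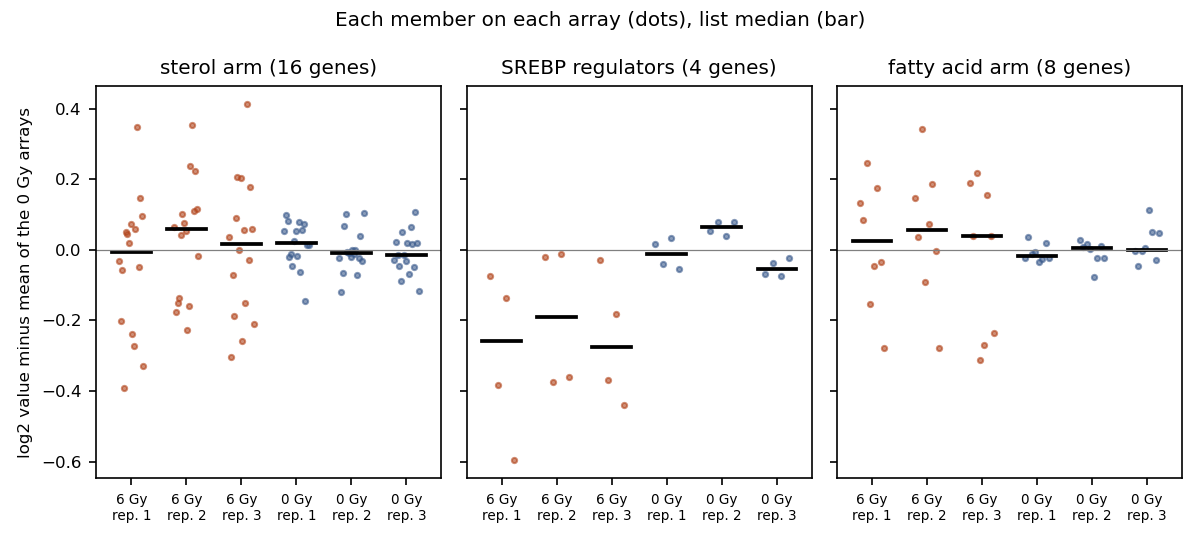
Log2 value of each member minus its own mean on the 0 Gy arrays (dots) and the median of each list (bars), for the 3 irradiated (left) and 3 unirradiated arrays. The unirradiated dots lie near 0 because they are measured from their own mean; the medians of both arms stay within 0.06 of 0 on every irradiated array, and those of the regulators lie between -0.28 and -0.19.

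Further genes of sterol synthesis, handling and control included changes in both directions. Their counts stand beside 6.35% of all genes called higher and 8.18% called lower. Of 7 other sterol synthesis genes measured, 1 rose and 1 fell (14.3% each), and these encode alternative reductases for the same step: TM7SF2 rose by 0.52 ± 0.09 (SE), with a limma adjusted p of 0.00498, and LBR, which also binds lamins at the inner nuclear membrane, fell by 0.27 ± 0.08 (SE). The LBR call (adjusted p 0.0465 in limma) ended without any 1 array except irradiated replicate 2, with adjusted p up to 0.158, and with the replicate block (0.0549). On the same scale, with the unirradiated mean at 0, the ratio of TM7SF2 to LBR was higher by 0.79 on the irradiated arrays. POR, which passes electrons to CYP51A1 and SQLE, differed by 0.20 (limma adjusted p 0.0632, from 0.0298 to 0.174 over the alternatives). Of 12 genes that process or degrade SREBPs or act with them, 0 rose and 3 fell (25%) by limma, and 0 higher and 6 lower had an unadjusted p under 0.05, beside 15.8% of all genes higher and 14% lower. The falls were those of SP1, which fell by 0.38, INSIG2, a relative of INSIG1, which fell by 0.30, and the NF-Y subunit gene NFYC, which fell by 0.28. The call of INSIG2 ended without any 1 array except irradiated replicate 2 (limma adjusted p up to 0.147), and that of NFYC without replicate 1 or 2 of either group (up to 0.109). The replicate block ended both, with adjusted p of 0.0797 for INSIG2 and 0.0685 for NFYC.

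Of 12 uptake and transport genes, 1 rose (8.33%) and 2 fell (16.7%). NPC1, which exports cholesterol from lysosomes, rose by 0.31 ± 0.06 (SE), whereas its soluble partner NPC2 fell by 0.30 ± 0.07 (SE), and LRP8, a lipoprotein receptor gene, fell by 0.49 ± 0.07 (SE). The ratio of NPC1 to NPC2 was higher by 0.61 on the irradiated arrays. The limma adjusted p was 0.0108 for NPC1, 0.0165 for NPC2 and 0.00163 for LRP8. NPC2 was not called without unirradiated replicate 1 (0.0622) or unirradiated replicate 2 (0.0618). Of 10 genes of sterol efflux and its nuclear receptors, 1 rose and 1 fell (10% each). ABCA1, the transporter that exports cholesterol to apolipoproteins, had 6.63, 6.60 and 6.77 on the irradiated arrays and 5.68, 6.16 and 5.65 on the unirradiated arrays. It rose by 0.84 ± 0.13 (SE), or 1.78-fold (limma adjusted p 0.00244), a larger difference than that of any of the 28 members. RXRB, which encodes a partner of nuclear receptors, fell by 0.45, and LPCAT3 differed by 0.14 (limma adjusted p 0.209).

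**Figure D5:**
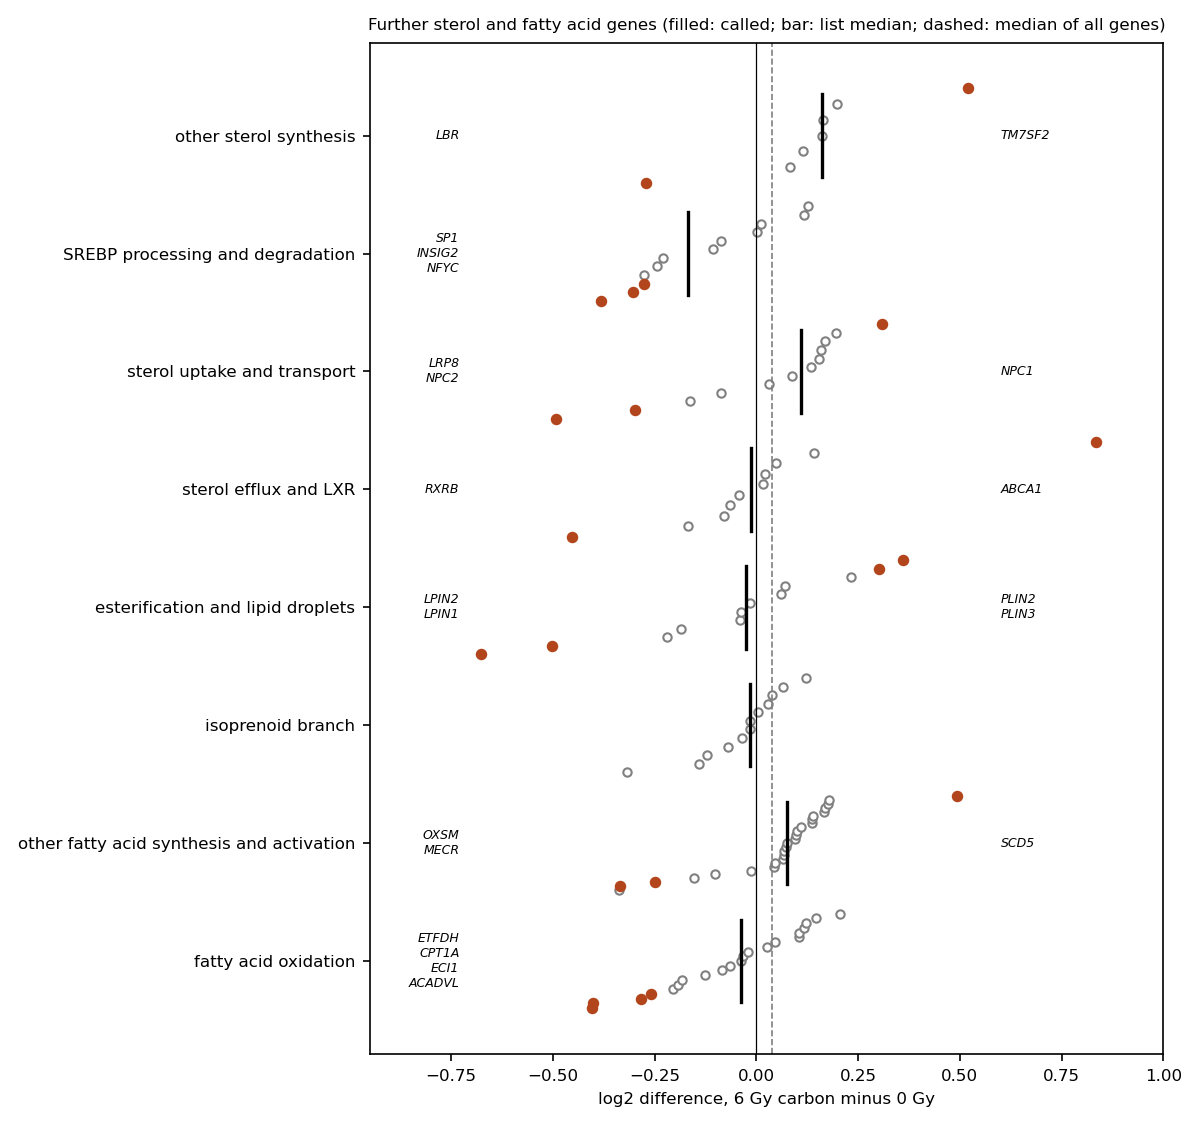
Log2 difference between 6 Gy and 0 Gy cells for 111 further genes in 8 lists (dots; filled where called, with their names beside the list in order of size), the median of each list (bars) and the median of all genes (dashed). ABCA1 lies farthest to the right at 0.84 and LPIN2 farthest to the left at -0.68.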

How the data were processed

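The 6 arrays of 1 cell line were used, 3 irradiated and 3 unirradiated, grouped by the dose in the labels. The authors deposited 33297 processed probe set values per array, read here as log2 intensities from their range; how they were normalized, corrected for background and computed, and on which build, is not given in the sources used here, and detection calls and scanner files were not used. Gene names come from GEO's platform annotation, which can be old: 19460 list 1 gene, 1754 several and 12083 none. Genes with several probe sets (769) were represented by the brightest, which gave 18417 genes. All were fitted with limma 3.58.1 (lmFit, eBayes, 4 residual and 5.85 prior degrees of freedom) in R 4.3.3, two-sided, without covariates or a filter on dim genes. A gene was called at a Benjamini-Hochberg adjusted p under 0.05 over all genes, and "rose" and "fell" are used of called genes. Standard deviations are over 3 arrays, and 95% intervals are from the moderated fit. With 3 against 3 arrays an exact two-sided permutation p cannot be below 0.1, and no such test was made. Lists are described by counts and medians beside those of all genes, which were not matched to the lists for brightness. Named genes are all members, of each further list of lipid genes the called genes and at least the 3 with the smallest p, and of the cell type markers the called genes and, among T and NK cell markers, the one with the smallest p. The members and lists were chosen with earlier results of these data known. Motif searches used Python 3.11.15, with numpy 2.4.6, pandas 2.3.3 and matplotlib 3.10.9 for tables and figures. The 14 alternatives were a replicate block, each array left out, no genes from the dimmest 33.3%, quantile normalization, subtracted array medians, a trended robust prior, array weights, the mean of a gene's probe sets and an adjusted p under 0.01.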

Additional observations from a re-analysis of the deposited data

How the results depend on the processing

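Over 14 alternatives and 28 members (392 values), the direction and side of the threshold were as reported in 352, the call ended in 22, a call was gained in 5 and the sign turned in 13. Over 26 further lipid genes (364 values), 296 were as reported, the call ended in 59, a call was gained in 9 and 0 signs turned; the replicate block ended the calls of INSIG2, NFYC, LBR, PLIN2, ACADVL and MECR. INSIG1, SREBF2 and NSDHL were called under all 14, an adjusted p under 0.01 included. With a replicate block of the sample numbers, 1919 of all genes changed in place of 2676, 1 member was higher and 2 lower, and the arm medians were as before. The labels do not say that the numbers pair the doses, so the numbers were not taken to pair the samples. Deviations of same-numbered arrays correlated at -0.0416, 0.103 and -0.111, and those of different-numbered arrays between -0.112 and 0.148. With 3 arrays a group, these correlations cannot decide whether the samples were paired. With 1 array left out, 1471 to 2184 genes changed (1584 and 1471 without unirradiated replicates 1 and 2), 1 to 2 members were higher, 2 to 3 lower, the sterol median ran from -0.018 to 0.0458 and the fatty acid median from 0.0077 to 0.041. At an adjusted p under 0.01, 1077 genes changed, 1 member was higher and 2 lower. With an intensity trend and a robust prior 4 members were higher, ACLY and FADS2 being added. The fatty acid median was 0.0524 after quantile normalization and -0.0033 with array medians subtracted. The signs that turned were those of members near 0: with array medians subtracted ACAT2 (-0.0071), EBP (-0.0183) and ELOVL5 (-0.0293), with array weights EBP (-0.00038) and ELOVL5 (-0.0119), and after quantile normalization ELOVL5 (-0.0029). With 1 array left out, EBP ran from -0.038 to 0.0485 (-0.00048 and -0.0127 without unirradiated replicates 2 and 3, -0.038 without irradiated replicate 2), and ELOVL5 from -0.0186 to 0.0183 (-0.0141 without unirradiated replicate 3, -0.0186 without irradiated replicate 3). MSMO1 ran from -0.0467 (without irradiated replicate 2) to 0.148, and SCD from -0.157 to 0.0139 (without irradiated replicate 3). The causes were not tested. Background correction and slide as a block were not run, since scanner files were not used. Without detection calls, whether dim genes lay above background is unknown.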

Other observations

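Genes that store or burn fatty acids are listed here beside the synthesis genes. Of 12 genes of esterification and lipid droplets, 2 rose and 2 fell (16.7% each), against 6.35% of all genes higher and 8.18% lower. The droplet coat genes PLIN2 and PLIN3 rose by 0.36 and 0.30, and the phosphatidate phosphatase genes LPIN1 and LPIN2 fell by 0.50 and 0.68 on the log2 scale, with limma adjusted p of 0.0356, 0.016, 0.00249 and 0.00427 in that order. LPIN2 had values of 6.92, 6.94 and 7.21 on the irradiated arrays and 7.62, 7.93 and 7.55 on the unirradiated arrays. The call of PLIN2 ended without replicate 2 or 3 of either group (limma adjusted p up to 0.105), with the replicate block (0.0744) and with array weights (0.055), and that of PLIN3 without unirradiated replicates 1 and 3 (up to 0.0675).

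Of 21 genes of fatty acid oxidation, 4 fell (19%) and 0 rose, beside 8.18% of all genes lower, with a median difference of -0.04; 7 were lower and 0 higher at an unadjusted p under 0.05 in limma, beside 14% of all genes lower and 15.8% higher. CPT1A, which loads fatty acids for entry into mitochondria, fell by 0.40, ETFDH, which passes their electrons to the respiratory chain, by 0.41, the isomerase gene ECI1 by 0.28 and the dehydrogenase gene ACADVL by 0.26. The limma adjusted p was 0.00991 for CPT1A and 0.0131 for ETFDH. The calls ended for ACADVL without any 1 array except unirradiated replicate 3 (up to 0.138) and with the replicate block (0.0801), for ECI1 without unirradiated replicate 1 or 2 or irradiated replicate 1 or 3 (up to 0.0965) and for ETFDH without unirradiated replicate 2 (0.0559).

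Of 25 other genes of fatty acid synthesis and activation, 1 rose (4%) and 2 fell (8%), near the shares of all genes. SCD5, a relative of SCD, rose by 0.49 ± 0.09 (SE), with a limma adjusted p of 0.00632. The mitochondrial fatty acid synthesis genes OXSM and MECR fell by 0.34 and 0.25. The call of MECR ended without any 1 of the 6 arrays (limma adjusted p up to 0.126), with the replicate block (0.0705) and after quantile normalization (0.0974), and that of OXSM without unirradiated replicate 2 (0.0582). Of 12 genes of the isoprenoid branch, 0 passed limma, beside 14.5% of all genes, and 1 had an unadjusted p under 0.05, beside 29.8%. That was COQ2, an enzyme of ubiquinone synthesis, with a difference of -0.32 (adjusted p 0.0765, from 0.0129 without irradiated replicate 3 to 0.207 over the alternatives), followed by RCE1 at -0.12 and DHDDS at 0.12.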
